A study of Mus musculus with 6 samples.

Results

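Genes of neuronal commitment and early neuronal differentiation were examined in neural stem cells divided by a reporter, 10 in all: the bHLH transcription factors Neurod1, Neurod4 and Neurog2, the transcription factors Insm1, Eomes and Prox1, the RNA-binding proteins Elavl2 and Elavl4, the small GTPase Rnd2 and the microtubule-binding protein Dcx. Members were all probe sets that the platform annotation assigns to exactly 1 of these 10 symbols, which gave 26 of the 34945 probe sets with a single gene on the Affymetrix mouse genome array. The samples were neural stem cells of the mouse in which green fluorescent protein (GFP) reports Spot14, the product of the gene Thrsp, which is known from lipogenic tissues. RNA of GFP positive cells (Spot14+) and of GFP negative cells (Spot14-) was hybridised to 6 arrays, 3 biological replicates per group according to the labels, which name no treatment. The series is titled for the role of fatty acid synthase dependent lipogenesis in adult neural stem cell activity, and the comparison asks here how genes of neuronal commitment differ between reporter positive and negative cells. The age and strain of the mice, the design of the reporter and the means of growing and sorting the cells are not given in the sources used here. Values are log2 signals made by the authors with GCRMA, which places transcripts without detectable signal on a low floor. A level of log2 4 was taken as the limit of usable signal.

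In the adult and developing forebrain, proneural bHLH factors such as Neurog2 start the neuronal programme in progenitors and switch on further bHLH factors of the Neurod family. Insm1 and Eomes mark the intermediate progenitors that follow, Prox1 is a homeobox factor of neural progenitors and hippocampal granule neurons, and Elavl2 and Elavl4 bind AU-rich and U-rich stretches of messenger RNA and act on its stability and translation in newborn neurons. Rnd2 and Dcx act on the cytoskeleton of migrating neurons.

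Of the 10 genes, 2 were lower and 1 was higher in GFP positive cells, and 4 showed no usable signal in either group. Elavl4 fell by 1.59 and Elavl2 fell by 0.92 on the log2 scale, which is 3.00-fold and 1.89-fold lower. Rnd2 rose by 0.90, or 1.87-fold. Neurod1 and Prox1 did not pass the test, Eomes was too dim to be tested, and Neurod4, Neurog2, Insm1 and Dcx stayed below log2 4 on every array. The 3 calls lay close to the threshold: limma adjusted p was 0.0463 for Elavl2, 0.0474 for Elavl4 and 0.0493 for Rnd2, against a threshold of 0.05.

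Those calls come from a fit of 10531 genes, each represented by its brightest probe set, in which 4.46% of genes passed, 2.35% higher and 2.11% lower. That background depended on single arrays. It stood at 248 higher and 222 lower genes with all arrays. Leaving out 1 GFP negative array gave 158 and 196 (replicate 1), 70 and 36 (replicate 2) or 801 and 443 (replicate 3). Leaving out 1 GFP positive array gave 2 and 0 (replicate 1), 40 and 66 (replicate 2) or 1 and 0 (replicate 3), where limma without adjustment still put 529 to 702 genes below 0.05 as lower in the fits with 0. Of the 10 members 5 entered that fit, because at least 3 of 6 arrays had to read log2 4 or more, and a gene can meet this through its brighter group alone. The groups did not overlap for 4 of these 5 members, against 25.3% of all genes tested. In a second fit of all 18742 probe sets above the same limit, where 2.37% passed, 9 member probe sets were tested and 0 passed in either direction, against 1.3% of all tested probe sets higher and 1.07% lower. Without adjustment limma put 1 of the 9 below 0.05 as higher and 3 as lower, against 8.72% and 7.4% of all tested probe sets. The groups did not overlap for 4 of the 9, against 23.4% of all tested probe sets. An exact 2-sided permutation test of 3 against 3 arrays cannot give a p below 0.1, which is the value for each probe set whose groups do not overlap. The small number of arrays, 3 in each group, limits the precision, and the labels do not say what a biological replicate was.

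The arrays themselves differed in several respects. Thrsp read 14.13 to 14.32 on GFP positive and 13.41 to 13.71 on GFP negative arrays, a difference that missed the threshold (limma adjusted p = 0.0893). Markers of neural stem cells were present, with 11 of 12 listed genes bright enough to test and Prom1 under log2 4 on all arrays. Of these 11, Nr2e1 was higher (0.86, limma adjusted p = 0.0308), and the list's median difference was 0.38. The differences were positive for 8 and negative for 3, with Nes the most negative (−0.49, limma adjusted p = 0.364). Genes of dividing cells were lower in GFP positive cells, 11 of 11 tested, with a mean level over the list of 5.59 to 6.52 on GFP positive and 7.71 to 8.46 on GFP negative arrays, and none of them was under log2 4 on all arrays. Astrocyte markers were higher, 6 of 10, at 11.04 to 11.21 against 9.54 to 9.99, again with none under log2 4 on all arrays. Of the 11 mature neuron markers on the array, 0 of 5 tested passed, with 0 at an unadjusted p under 0.05, at list levels of 4.57 to 4.71 and 4.73 to 4.87. The differences of the 5 were negative for 4 and positive for 1. Rbfox3, Syt1, Slc17a7, Slc17a6 and Gad2 were under log2 4 on all arrays. Snap25 reached log2 4 on 1 array and was not tested. Its mean was 2.94 in GFP positive and 3.995 in GFP negative cells, and the groups did not overlap. The excess of 3′ over 5′ signal, averaged over Gapdh and beta-actin controls, was 2.49 on GFP negative replicate 2 and 1.51 to 1.82 on the others on the log2 scale. The control probe set for the middle of the small-subunit ribosomal RNA separated the groups, at 12.82 to 13.03 on GFP positive and 13.39 to 14.12 on GFP negative arrays. Of 7 pericyte and smooth muscle markers on the array 5 were under log2 4 on all arrays, and Acta2 was lower (−1.29, limma adjusted p = 0.0413). The part of these differences in the results below was not tested. In such bulk RNA, fewer cells of a type and less RNA per cell cannot be told apart.

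**Figure D1:**
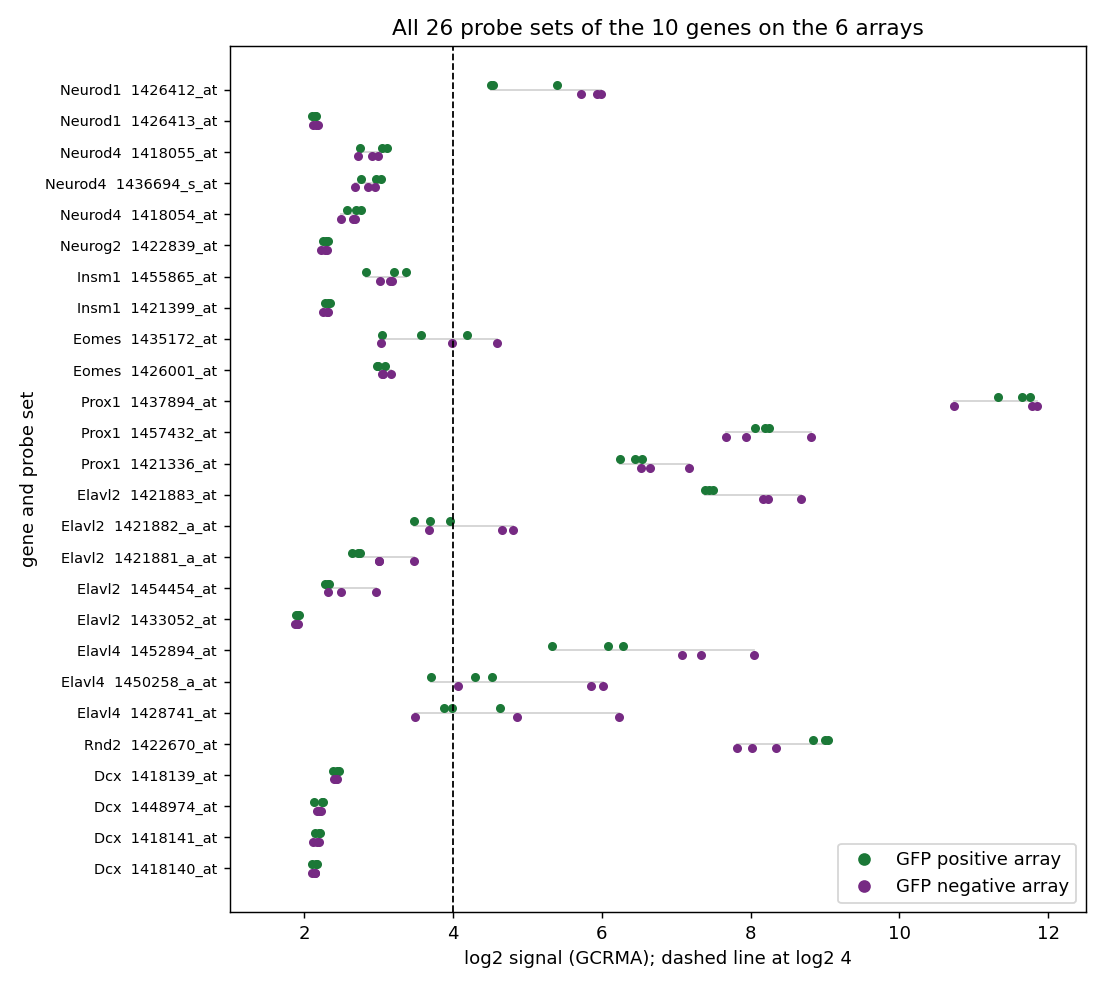
Log2 signal of all 26 member probe sets (rows, with gene and probe set name) on the 6 arrays (points; green GFP positive, purple GFP negative), with a dashed line at log2 4. Of the probe sets, 15 lie left of the line on every array, including all of Dcx, Insm1, Neurod4 and Neurog2, and the grey lines span the lowest to the highest array.

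Among the commitment factors that start the programme, signal was mostly missing. Neurog2, a proneural bHLH factor of cortical and hippocampal progenitors, has 1 probe set, which read 2.25, 2.30 and 2.32 on GFP positive arrays and 2.31, 2.28 and 2.22 on GFP negative arrays. The values of both groups lay in the same narrow band near the floor of the scale. Neurod4, a related bHLH factor, has 3 probe sets, and they stayed between 2.49 and 3.11. Insm1, a zinc finger repressor that acts in basal progenitors, has 2 probe sets, between 2.25 and 3.38. In all, 15 of 26 member probe sets stayed under log2 4 on all 6 arrays, against 42.9% of the probe sets with a single gene. By their brightest probe set 4 of 10 genes did, against 39.6% of 18193 genes. For these probe sets the values say only that signal was not above the limit. This includes Elavl2 1421881_a_at, whose groups did not overlap near the floor.

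Eomes, the T-box factor also known as Tbr2 and a marker of intermediate progenitors, lay at the limit. Its brighter probe set read 4.19, 3.58 and 3.05 on GFP positive arrays and 3.03, 4.59 and 3.98 on GFP negative arrays, so that 1 array of each group exceeded log2 4 and the groups overlapped. The means were 3.61 ± 0.57 and 3.87 ± 0.79 (SD, n = 3 each), and the exact 2-sided permutation p was 0.8. The other probe set stayed between 2.98 and 3.17. Together with a dimmer Elavl2 probe set (1421882_a_at), which exceeded log2 4 on 2 GFP negative arrays, Eomes was the member nearest below the limit of 3 arrays. The member nearest above it was an Elavl4 probe set (1428741_at) with exactly 3 arrays at log2 4 or more.

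Neurod1 was the only bHLH member with usable signal. This factor drives the survival and maturation of newborn granule neurons. Its brighter probe set read 4.54, 5.40 and 4.51 on GFP positive arrays and 5.72, 5.93 and 5.99 on GFP negative arrays. All GFP negative arrays were above all GFP positive ones, and GFP positive replicate 2 lay closest to them. Group means stood at 4.82 ± 0.51 and 5.88 ± 0.14 (SD, n = 3 each). The difference was −1.06 (SE 0.27, 95% limma interval −1.70 to −0.43), or 2.09-fold, and missed the threshold (limma adjusted p = 0.0796). With an array left out, limma's adjusted p lay between 0.0559 without GFP positive replicate 2, where the difference was −1.35, and 0.296 without GFP positive replicate 3. The other Neurod1 probe set stayed between 2.11 and 2.19 on all arrays.

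Prox1 was bright on all arrays and the groups overlapped. Prox1 is a homeobox factor that sets the identity of dentate granule neurons. Its brightest probe set read 11.32, 11.64 and 11.76 on GFP positive arrays and 11.86, 11.78 and 10.73 on GFP negative arrays. The lowest value and the highest value both came from GFP negative arrays, replicates 3 and 1. The difference was 0.12 (SE 0.32, 95% limma interval −0.64 to 0.87; limma adjusted p = 0.903), and the interval holds changes of either sign. Without GFP negative replicate 3 the sign turned, to −0.24 (limma adjusted p = 0.417). The other 2 probe sets differed by 0.03 (1457432_at) and −0.37 (1421336_at), with limma adjusted p = 0.977 and 0.502 in the fit of all probe sets. Their values overlapped between groups, at 8.06 to 8.25 against 7.67 to 8.81 and at 6.25 to 6.54 against 6.53 to 7.18.

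Elavl4, also called HuD, was the member with the largest difference among the 5 genes tested. Its brightest probe set (1452894_at) read 6.08, 6.29 and 5.33 on GFP positive arrays and 7.34, 7.07 and 8.04 on GFP negative arrays. The groups did not overlap, and the highest GFP positive array lay below the lowest GFP negative one. Group means stood at 5.90 ± 0.50 and 7.48 ± 0.50 (SD, n = 3 each), so that GFP positive minus GFP negative was −1.59 (SE 0.34, 95% limma interval −2.38 to −0.79, limma adjusted p = 0.0474). In the fit of all probe sets the adjusted p was 0.0693. The call held without GFP negative replicate 3 (−1.31, limma adjusted p = 0.0406) and was lost without any other array, at limma adjusted p of 0.0859 to 0.162 and differences of −1.79 to −1.30.

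The other Elavl4 probe sets were dimmer and did not separate the groups. Probe set 1450258_a_at read 4.53, 4.29 and 3.70 on GFP positive arrays and 5.85, 4.07 and 6.02 on GFP negative arrays, a difference of −1.14 (limma adjusted p = 0.357 in the fit of all probe sets). Probe set 1428741_at read 3.99, 4.63 and 3.88 against 6.23, 4.86 and 3.49, a difference of −0.69 (limma adjusted p = 0.677). GFP negative replicate 3 was the brightest of the 6 arrays for 1452894_at and 1450258_a_at and the dimmest for 1428741_at. Without GFP negative replicate 1 the difference at 1428741_at was −0.0086, and without GFP negative replicate 3 it was −1.38 (limma adjusted p = 0.995 and 0.119). All 3 probe sets thus had negative differences with all arrays in the fit, of which 1 passed in 1 of the fits.

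Elavl2, also called HuB, differed less but with a tighter GFP positive group. Its brightest probe set (1421883_at) read 7.39, 7.44 and 7.49 on GFP positive arrays and 8.17, 8.68 and 8.23 on GFP negative arrays. The GFP positive arrays lay close together, and all were below the GFP negative ones. Group means stood at 7.44 ± 0.05 and 8.36 ± 0.28 (SD, n = 3 each), so that GFP positive minus GFP negative was −0.92 (SE 0.20, 95% limma interval −1.38 to −0.46, limma adjusted p = 0.0463). In the fit of all probe sets the adjusted p was 0.0695. The call held without GFP negative replicate 3 (−0.98, limma adjusted p = 0.0258) and was lost without any other array, at 0.0617 to 0.196.

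Of the other Elavl2 probe sets, 3 were under log2 4 on all arrays and 1 exceeded it on 2. Probe set 1421882_a_at read 3.47, 3.96 and 3.69 on GFP positive arrays and 4.80, 4.66 and 3.68 on GFP negative arrays, so that only GFP negative replicates 1 and 2 stood above the GFP positive ones. Probe set 1421881_a_at, near the floor, read 2.65, 2.72 and 2.75 against 3.01, 3.00 and 3.47, and the groups did not overlap. The remaining pair stayed between 1.87 and 2.97.

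The other members of the Elavl family did not pass. Elavl1, the ubiquitous HuR, read from a probe set of suffix _x_at, which can share sequence with other genes, gave 10.78, 11.18 and 11.27 on GFP positive arrays and 11.71, 12.15 and 10.77 on GFP negative arrays (difference −0.47, limma adjusted p = 0.578). Elavl3, or HuC, read 7.65, 7.69 and 7.79 against 7.46, 6.45 and 7.73 (difference 0.49, limma adjusted p = 0.513). Whether the differences of Elavl2 and Elavl4 are distinct from those of Elavl1 and Elavl3 was not tested.

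The start regions of the 2 Elavl genes that fell and of Neurod1 are shown because Neurod and Neurog proteins bind the E-box, CANNTG, a sequence that reads alike on both strands. RefSeq start regions (assembly GRCm38.p6, 250 bases before to 50 after a transcript start) were found for 8 of the 10 genes, in 19 windows; Rnd2 and Insm1 had no entry in the table. Capitals mark each CANNTG, and each sequence runs 5′ to 3′ on the strand of its gene.
Elavl4, chr4:110287478-110287777, minus strand: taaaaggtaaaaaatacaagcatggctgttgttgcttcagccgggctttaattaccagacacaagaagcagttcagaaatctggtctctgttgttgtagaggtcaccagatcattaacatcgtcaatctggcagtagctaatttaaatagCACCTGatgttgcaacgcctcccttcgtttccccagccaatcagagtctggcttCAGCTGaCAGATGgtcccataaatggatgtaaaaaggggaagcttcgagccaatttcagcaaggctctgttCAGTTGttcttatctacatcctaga
Elavl2, chr4:91399935-91400234, minus strand: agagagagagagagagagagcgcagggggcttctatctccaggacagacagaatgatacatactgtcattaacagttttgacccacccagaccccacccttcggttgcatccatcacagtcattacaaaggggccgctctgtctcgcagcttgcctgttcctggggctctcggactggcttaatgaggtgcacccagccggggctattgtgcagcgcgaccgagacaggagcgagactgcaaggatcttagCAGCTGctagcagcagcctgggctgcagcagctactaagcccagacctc
Neurod1, chr2:79456587-79456886, minus strand: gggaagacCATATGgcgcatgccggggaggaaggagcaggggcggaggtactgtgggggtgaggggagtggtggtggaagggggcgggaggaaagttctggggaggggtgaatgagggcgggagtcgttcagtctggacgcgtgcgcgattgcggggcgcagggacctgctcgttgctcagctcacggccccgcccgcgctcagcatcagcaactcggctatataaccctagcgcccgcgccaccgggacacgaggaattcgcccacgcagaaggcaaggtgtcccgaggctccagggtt
The Elavl4 window holds 4 matches, among them 1 CAGCTG and 1 CAGATG, which are both forms of CANNTG. The 4 Elavl4 windows hold 0 to 4 matches, and the one printed was chosen for its count, which an overlapping window shares. All 6 Elavl2 windows, which overlap in part, hold 1, which is CAGCTG in 3 of them, the printed one included. The Neurod1 window holds 1. Among the genes whose windows are not printed, those of Dcx, Eomes and Neurog2 hold 0. Neurod4 and Prox1 each have a match in 1 of 2 windows. Of 32851 mouse windows of the same length 72.3% hold at least 1 CANNTG, 17.2% hold CAGATG or its reverse complement CATCTG, and 16.3% hold CAGCTG. These matches describe the letters of the windows and were not tied to the array values.

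Rnd2 was the member that rose. This GTPase acts in migrating neurons of the cortex and is known as a target of Neurog2. Its 1 probe set read 9.04, 9.00 and 8.84 on GFP positive arrays and 8.02, 7.81 and 8.34 on GFP negative arrays. Every GFP positive array lay above every GFP negative array, with GFP negative replicate 3 the closest. Group means stood at 8.96 ± 0.10 and 8.06 ± 0.26 (SD, n = 3 each), so that GFP positive minus GFP negative was 0.90 (SE 0.20, 95% limma interval 0.44 to 1.36, limma adjusted p = 0.0493). In the fit of all probe sets the adjusted p was 0.0732. The call held without GFP negative replicate 3 (1.04, limma adjusted p = 0.0134) and was lost without any other array, at 0.102 to 0.214. Without probe sets of suffix _s_at or _x_at, which leaves the Rnd2 values as they are, the limma adjusted p was 0.0523.

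Dcx, doublecortin, a microtubule-binding protein of neuroblasts and migrating neurons, has 4 probe sets. The brightest read 2.40, 2.45 and 2.46 on GFP positive arrays and 2.44, 2.42 and 2.41 on GFP negative arrays, and the others stayed between 2.11 and 2.26. No array of either group gave usable Dcx signal.

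**Figure D2:**
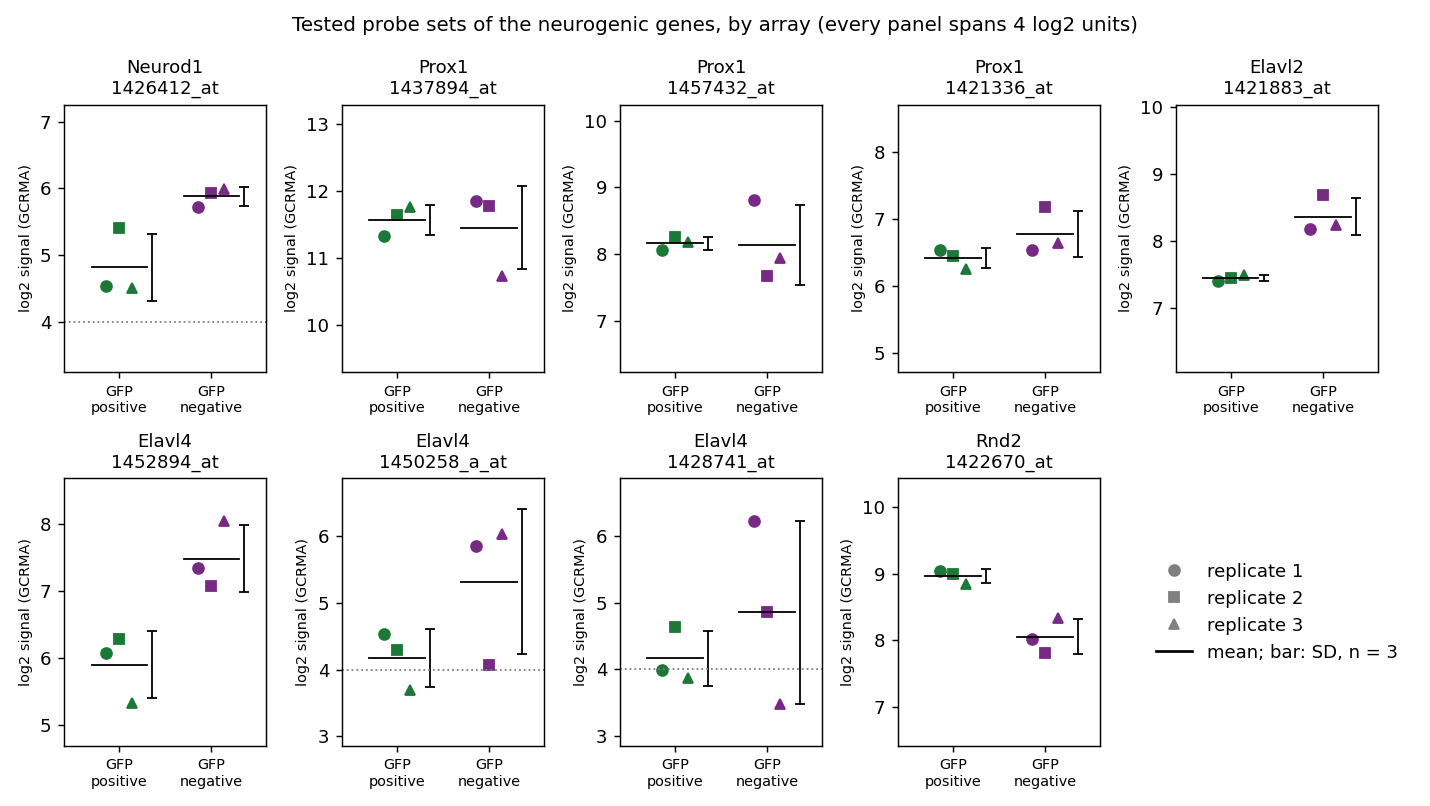
Log2 signal of the 9 member probe sets that were tested, by group; symbols are replicates 1 to 3, horizontal lines are means, bars are SD (n = 3) and the dotted line is log2 4. The groups do not overlap for Neurod1 1426412_at, Elavl2 1421883_at, Elavl4 1452894_at and Rnd2 1422670_at, and they overlap in the other 5 panels.

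With all 6 arrays the directions differed among the tested members, with 3 of 5 negative at an unadjusted p under 0.05 (Neurod1, Elavl2 and Elavl4), 1 positive (Rnd2), and Prox1 near 0. Over all 10531 genes 8.28% were lower and 9.92% higher by that measure. Each of the 3 calls held when GFP negative replicate 3 was left out and none held in the other 5 fits, as the number of calls over all genes rose in the former and was smaller in each of the latter. With the 3′ to 5′ ratio as a covariate the differences were −0.73 for Elavl2, −1.75 for Elavl4, 0.79 for Rnd2 and −0.98 for Neurod1, and none passed (limma adjusted p = 0.193, 0.148, 0.229 and 0.310). Over all genes 9 higher and 0 lower passed in that limma fit, with 794 and 563 at an unadjusted p under 0.05.

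**Figure D3:**
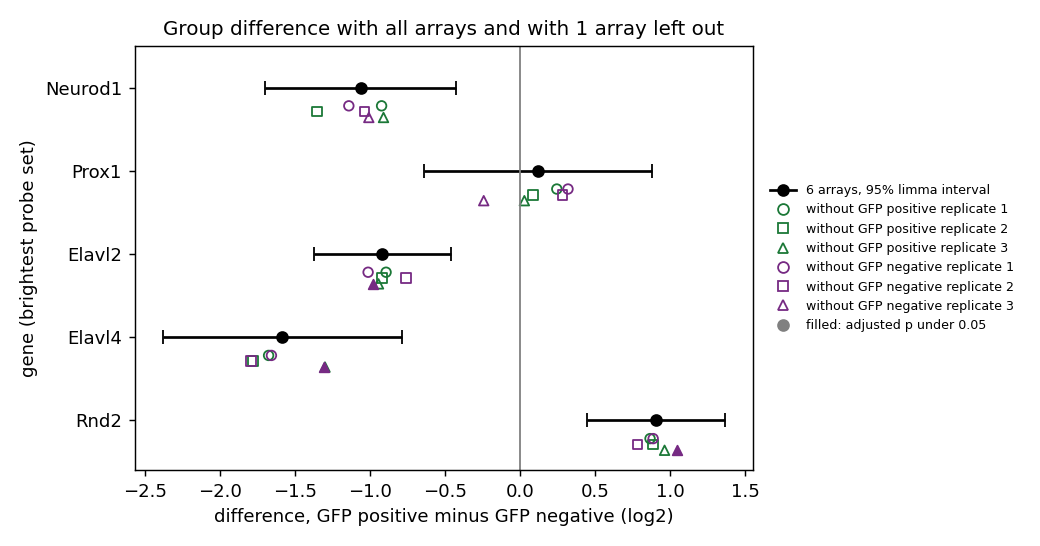
Difference between GFP positive and GFP negative cells (log2) for the 5 member genes tested, with the 95% limma interval over 6 arrays (black) and the difference with each array left out (coloured, filled where the adjusted p was under 0.05). Without GFP negative replicate 3, the filled points are Elavl2 at −0.98, Elavl4 at −1.31 and Rnd2 at 1.04; Prox1 then turns to −0.24.

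By the size of the centred differences over 6 arrays, the genes most like Elavl4 were Dut, Ccnb2 and Apln. The root mean square difference from Elavl4 was 0.080, 0.10 and 0.12 on the log2 scale. Dut makes dUMP for thymidine synthesis, Ccnb2 is a mitotic cyclin and Apln is a secreted peptide. Relative to each gene's mean, the dividing cell list had a median of −1.31 to −0.60 on the GFP positive and 0.61 to 1.40 on the GFP negative arrays. The part of cell division in the Elavl4 values was not tested.

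The genes most like Elavl2 were Cep41, Mrgbp and Nup107, at 0.070, 0.072 and 0.088. Cep41 is a centrosomal protein and Nup107 a nuclear pore subunit. Those most like Rnd2 were Mro, Axin2 and Cebpd, at 0.051, 0.076 and 0.078. Axin2 is a negative regulator and target of Wnt signalling, and Cebpd is a leucine zipper transcription factor. Those most like Neurod1 were Fdft1, Jpt2 and Clic5, at 0.16, 0.17 and 0.18. Fdft1 is squalene synthase and was read from a probe set of suffix _x_at. These genes were chosen for their likeness, so that the direction of their own differences follows from the choice, and over 6 arrays the likeness describes these values only.

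Other genes of neurogenesis were taken from 7 role groups with 103 genes, of which 100 were found among the probe sets with a single gene and 68 were tested. Of these, 1 was higher (Reln) and 3 were lower (Myt1, Bcl11b and Khdrbs3), or 1.47% and 4.41%, beside 2.35% and 2.11% of all genes tested. The median difference was 0.020 over the 68 genes and 0.0049 over all 10531.

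Proneural and neuronal bHLH factors beside the members gave 0 calls among 5 tested genes with limma, and 0 at an unadjusted p under 0.05. Neurog1, Neurog3, Neurod2, Neurod6, Atoh1, Nhlh1 and Nhlh2 were under log2 4 on all arrays. The brightest tested were Tcf4, an E protein that pairs with proneural factors (0.11, limma adjusted p = 0.827), and Olig2 (−0.20, limma adjusted p = 0.599).

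The Hes, Hey and Id families and Rest, most of which oppose these factors, had 9 positive and 1 negative difference among 10 tested, with a median of 0.49. None passed with limma. Without adjustment 5 had a positive difference at p under 0.05, against 9.92% of all genes, and 1 a negative one, against 8.28%. The negative one was Hes6 (−0.62, limma adjusted p = 0.142), which is known to inhibit Hes1 and to promote neuronal differentiation. Hes6 and Hes5, which is 1 of the 5, were each read from a probe set of suffix _x_at, Hes5 at only 4.35 to 5.26. The brightest were Id2, which binds E proteins and keeps them from DNA (0.53, limma adjusted p = 0.222), and Rest, a repressor of neuronal genes (0.015, limma adjusted p = 0.984). Among Notch ligands and modulators 0 of 5 passed, and without adjustment 1 reached p under 0.05, as lower. The brightest, Mib1, which activates Notch ligands, differed by 0.036, and Lfng by 0.15 (limma adjusted p = 0.95 and 0.765).

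Zinc finger, T-box, homeobox and HMG factors of commitment gave 2 lower genes among 11 tested. Myt1, a zinc finger factor of neuronal and oligodendroglial differentiation, read 8.38, 8.74 and 8.57 on GFP positive arrays and 10.14, 10.61 and 9.87 on GFP negative arrays. The groups did not overlap, and the difference was −1.64 (SE 0.23, limma adjusted p = 0.0158). Oligodendrocyte progenitor markers had 5 of 5 negative differences beside it, none of which passed, with Cspg4 at −1.31 (limma adjusted p = 0.134), list levels of 6.62 to 6.81 against 6.92 to 7.14, and Sox10, Gpr17 and C1ql1 under log2 4 on all arrays; their part in the Myt1 values was not tested. The Myt1 call was lost without any 1 of the GFP positive arrays, at 0.0559 to 0.0894, and held without GFP negative replicates 1, 2 or 3, at 0.0382, 0.0479 and 0.00707. Bcl11b, or Ctip2, a zinc finger factor of several neuron types, read 4.58, 4.12 and 5.25 against 7.03, 7.35 and 5.97, a difference of −2.13 (SE 0.42, limma adjusted p = 0.0374). The call of Bcl11b held without GFP negative replicate 3 (0.00929) and was lost without any other array, at 0.0804 to 0.150. The other 9 tested genes did not pass, Sox4 (−0.084) and Sox11 (−0.025) included, and Myt1l, St18, Tbr1 and Insm2 were among 9 genes under log2 4 on all arrays.

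Among neuronal RNA-binding and splicing factors other than the members, 1 of 10 tested was lower and 0 higher. Khdrbs3, a STAR-family splicing regulator, read 6.54, 6.87 and 6.31 on GFP positive arrays and 7.40, 7.91 and 8.18 on GFP negative arrays, a difference of −1.25 (SE 0.26, limma adjusted p = 0.0425). It also passed without GFP negative replicate 1 (0.0377) or 3 (0.0366) and not without any other array, at 0.0945 to 0.178. The neuronal factors Rbfox1, Rbfox3, Celf3 and Srrm4 were under log2 4 on all arrays.

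Reln was the 1 gene among the 68 that rose. Reelin, a secreted glycoprotein that guides migrating neurons, read 8.74, 9.11 and 9.21 on GFP positive arrays and 7.62, 8.28 and 7.45 on GFP negative arrays, a difference of 1.24 (SE 0.26, limma adjusted p = 0.0463). It also passed without GFP negative replicate 2 (0.0494) or 3 (0.0425) and not without any other array, at 0.105 to 0.191. Of 14 tested microtubule and cytoskeletal proteins of immature neurons 0 passed with limma, and without adjustment 1 reached p under 0.05, as lower. The brightest were Tubb2b (−0.15, limma adjusted p = 0.822) and Dclk1, a kinase related to Dcx (0.12, limma adjusted p = 0.778).

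**Figure D4:**
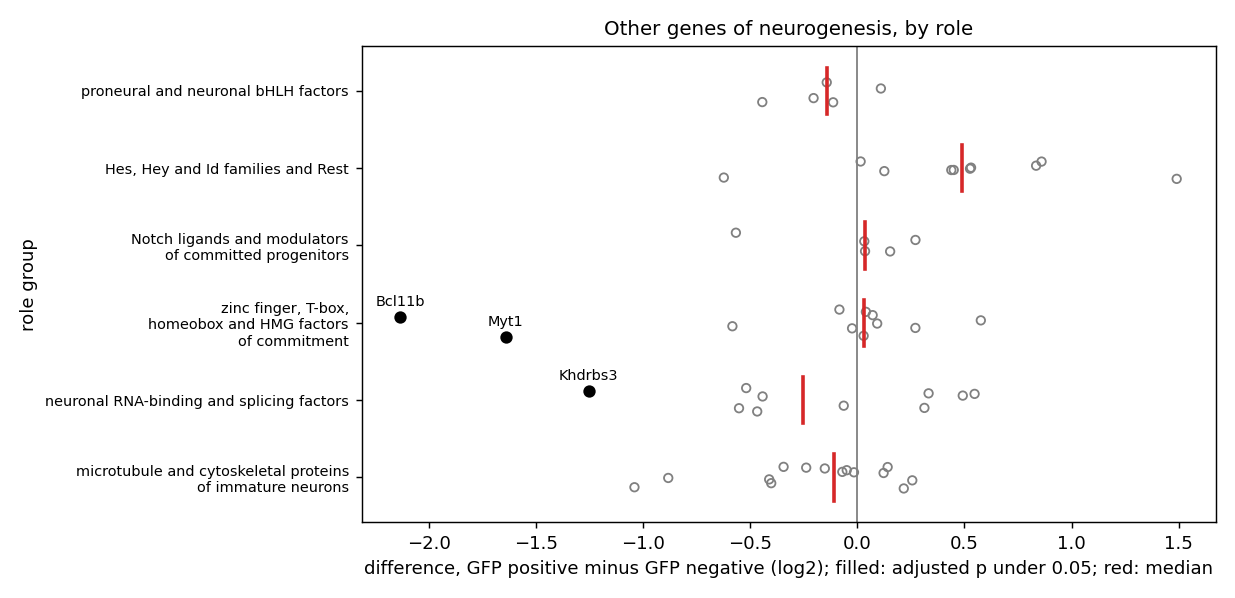
Differences between GFP positive and GFP negative cells (log2) of tested genes of neurogenesis that are not members, in 6 role groups; filled and named points passed at an adjusted p under 0.05, and red lines are medians. Myt1, Bcl11b and Khdrbs3 lie below 0, and the median of the Hes, Hey and Id families and Rest is 0.49.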

How the data were processed

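The authors deposited log2 values made with GCRMA, per the submitters' processing notes, with no version named there. GCRMA estimates background from probe sequence and brings the probe signals of all arrays to 1 distribution. Folds near the floor thus depend on that estimate, and a shift of all genes would be hidden. Array medians of the deposited probe set values still ran from 3.55 to 3.66. The table held 6 array columns and 45101 probe sets. Names came from the platform annotation, which gave 34945 probe sets a single gene, 932 several and 9224 none (controls included); the 10 member identifiers all matched the RefSeq annotation. The deposited values were used without further normalization. The comparison used lmFit and eBayes of limma 3.58.1 (R 4.3.3), with Benjamini-Hochberg adjustment over all genes, or all probe sets, with at least 3 of 6 arrays at log2 4 or more; differences are GFP positive minus GFP negative. The fits were tested on simulated data with independent normal noise for each gene or probe set and 200 of them changed. There, the gene fit recovered 30% of changes of 1 log2 unit and 90% of those of 2. The fit of all probe sets recovered 8% and 58%. Effects shared by the genes of an array were not simulated, so these shares may not hold for the real arrays. Exact permutation tests were 2-sided. Figures and sequence counts used Python 3.11.15.

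The members, the role groups and the marker lists were chosen with earlier results of these data known, so counts over them carry no test of their own. Genes outside the members were named by rule: in each role group up to 3 called genes per direction, or the 2 brightest if none was called, and the 3 genes nearest to each called member and Neurod1, clone and predicted names left out. Elavl1, Elavl3, Sox4, Sox11, Hes5, Hes6, the marker genes given with values and the dim genes were named once their values were known. The counts of 1 of the 7 role groups are not reported here. Alternatives were another filter, normalization, probe set choice, variance model, array weights, replicate block, a 3′ to 5′ covariate and each array left out.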

Additional observations from a re-analysis of the deposited data

How the results depend on the processing

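For member genes the main result was 1 higher and 2 lower. The count of higher members was 0 with no filter, without probe sets of suffix _s_at or _x_at, with trend and robust settings, with the replicate block and with the 3′ to 5′ covariate. The count of lower members was 0 with no filter, with the replicate block and with the covariate, and 1 with quantile normalization, with a common median, with trend and robust settings (Elavl4 in each) and with array weights (Elavl2). With 1 array left out the counts ran from 0 to 1 higher and from 0 to 2 lower. No member probe set passed in the fit of all probe sets; with array weights 1 was higher and 1 lower, and over the arrays left out 0 to 1 in each direction. For the other neurogenic genes, 1 higher and 3 lower became 0 and 1 with no filter, 0 and 0 with the replicate block, 0 and 0 with the covariate, 2 higher with trend and robust settings, and 9 lower with array weights. With 1 array left out they ran from 0 to 2 higher and from 0 to 6 lower. Over all 10531 genes, calls also changed with array weights, to 1051 higher and 603 lower from 248 and 222. With trend and robust settings they were 246 and 215. In fits with a count of 0, limma without adjustment put 1 member gene as higher and 3 as lower below p of 0.05; over the other neurogenic genes these were 3 to 8 higher and 3 to 6 lower. Why the counts changed was not tested.

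The sign of Prox1 turned with array weights (−0.097, or −0.082 in the fit of all probe sets) and without GFP negative replicate 3 (−0.24; at most 0.32 with another array left out). That of Prox1 1457432_at turned with the covariate (−0.33) and without GFP positive replicate 2 (−0.013), GFP negative replicate 2 (−0.20) or GFP negative replicate 3 (−0.070; at most 0.36 with another array left out). Elavl2, Elavl4, Rnd2 and Neurod1 kept their sign in every fit, which follows from groups that do not overlap where arrays are only left out. With array weights Neurod1 was at −0.63. Over all alternatives the limma adjusted p ran from 0.00677 to 0.196 for Elavl2, 0.0375 to 0.162 for Elavl4, 0.00412 to 0.229 for Rnd2 and 0.0559 to 0.310 for Neurod1. The replicate numbers showed no clear pairing of the samples. Deviations of same-numbered arrays correlated at −0.25, 0.053 and −0.50 across genes, and 1 of 3 GFP positive arrays correlated best with its own number. The deviations were taken within groups of 3 arrays and depend on each other, so this check cannot exclude a pairing. With the replicate block 19 genes were higher and 8 lower over all genes, instead of 248 and 222. Signals near the floor, as for Eomes and the dim Elavl probe sets, limit what can be read there.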

Other observations

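Of the 100 genes of neurogenesis outside the members on the array, 26 were under log2 4 on all arrays, beside 39.6% of all genes, and 6 more exceeded it on 1 array and were not tested. These 6 were named after their values were seen. Dll3, a divergent Notch ligand of committed progenitors, averaged 2.86 in GFP positive and 3.85 in GFP negative cells. Nova2, a neuronal splicing factor, averaged 2.93 and 3.57, and Mfng, which modifies Notch, averaged 3.08 and 3.42. Dlx1, a homeobox factor of interneuron progenitors, averaged 3.33 and 3.62. Rnd1, a relative of Rnd2, averaged 3.89 and 3.39, and Tubb3, a tubulin of young neurons, averaged 3.31 and 3.40.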
